A study of Homo sapiens with 4 samples.

Results

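The unfolded protein response of the endoplasmic reticulum (ER) was described here through 10 genes: ERN1, ATF6, XBP1, HSPA5, HSP90B1, DNAJB9, SDF2L1, CRELD2, EDEM1 and HERPUD1. They were chosen by name for their known roles, with earlier results of these data known. Each was taken from the line of the expression table that carries its symbol. They are 10 of 57979 lines with values, and all 10 had an average above 1 FPKM, fragments mapped to a gene scaled by its transcript length and by library size, and were among the 13246 genes tested. Polyadenylated RNA had been sequenced in 4 libraries of the same human line, labelled HepG2, a hepatocellular carcinoma line, all grown in DMEM with FBS. Replicates 1 and 2 of the wild-type (WT) group carried the genotype wild type, and replicates 1 and 2 of the knockout (KO) group carried TXNDC9 knockout made with CRISPR-Cas9. TXNDC9 encodes a thioredoxin domain containing protein. Per the study's methods the Cas9 plasmid was lentiCRISPRv2 with guides to TXNDC9, and for the protein blot infected cells were sorted by flow cytometry, with vector alone as control. The study's text mentions independent experiments for RNA-seq values, more of them than the libraries of a group here. Whether the sequenced KO cells were these sorted cells or a clone, with which guide, and whether replicates 1 and 2 are separate cultures is not given in the sources used here, so every p-value measures only the spread between these libraries.

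The ER folds secreted and membrane proteins. When unfolded proteins accumulate there, the chaperone HSPA5 (BiP) is drawn away from sensor proteins in the ER membrane and the sensors become active. ERN1 (IRE1) then cuts the XBP1 mRNA so that its spliced form encodes an active transcription factor, ATF6 is cleaved in the Golgi and its released part enters the nucleus, and EIF2AK3 (PERK) slows translation. XBP1 and ATF6 raise the transcription of chaperones and of the machinery that removes misfolded proteins, and liver cells, which secrete plasma proteins in bulk, rely on this capacity.

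Facts of the libraries bear on every value below. TXNDC9 itself was at 35.1 and 37.3 FPKM in WT and at 21.9 and 27.6 FPKM in KO, so the groups did not overlap. The difference of -0.55 on the log2 scale (SE 0.14, adjusted p = 0.0145, limma) was not called, and rescaled to TPM it was 0.12. These are mRNA levels and do not measure the protein. By protein blot the study reported a significant reduction of TXNDC9 in its knockout HepG2 cells. All 12 markers of hepatocytes and hepatoma cells, ALB, APOB, AFP and HNF4A among them, were between 0 and 0.449 FPKM in every library, 3 of them (APOA1, APOH and FOXA2) were listed at 0 in all 4, as was the mitochondrial gene MT-CO1, and their summed level was 0.553 and 0.733 FPKM in WT and 0.194 and 0.365 in KO. The defining markers of the labelled cell type were therefore at or near 0, and the cells are called here by their label. Of 12 markers of blood, vessel, connective tissue and keratin-rich epithelial cells, 6 were under 1 FPKM throughout, and the 12 summed to 36.4 to 41.8 FPKM in WT and 32.7 to 35.5 in KO. The highest of them in each library was at 31.5 and 22.8 FPKM in WT and at 20.7 and 17.5 FPKM in KO, above every hepatocyte and hepatoma marker. Of the 5 that were tested, 1 was called higher in KO and 0 lower. The FPKM values summed to 805816 and 971102 in WT and to 535973 and 568279 in KO, so the scale of the groups differed. No counts were used, the sequencing depth is unknown, and no interval that needs it is given. Differences across all genes also followed transcript length (Spearman rho 0.495 over 13112 genes). For these reasons each member is given under several scalings.

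A call needed a difference of 2-fold or more and an adjusted p under 0.01. By this rule, 15.3% of all tested genes were called lower in KO (2021 genes) and 14.2% higher (1885 genes). Of the 10 members, 2 were called lower, SDF2L1 and CRELD2, and 0 higher. At an adjusted p under 0.01 without the fold limit, 27.1% of all genes were lower and 23.7% higher, against 4 members lower (HSPA5, HSP90B1, SDF2L1 and CRELD2) and 1 higher (EDEM1). The members' shares thus lay near those of all genes. Both KO values lay below both WT values in 5 members and above them in 5, where 45.9% of all genes were below and 40.1% above. The median difference of the members was -0.078 on the log2 scale, and that of all genes -0.088. The genes did not move as a block. SDF2L1, CRELD2, HSP90B1 and HSPA5 were abundant members with lower FPKM in KO, and EDEM1, ERN1 and DNAJB9 were low-level members with higher FPKM in KO. XBP1 stood above CRELD2 in WT, at 74.3 and 76.7 FPKM. It was at 60.9 and 66.4 FPKM in KO and passed neither limit. HERPUD1, an ER membrane protein at 41.7 and 41.6 FPKM in WT, was not lower in KO (42.2 and 46.6 FPKM). This grouping moved with the scaling. HSPA5 was at 0.0066 on the TPM scale and 0.046 after quantile normalization, where HSP90B1 was at -0.015. With trends with transcript length and GC content removed, SDF2L1 was at -0.14.

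**Figure D1:**
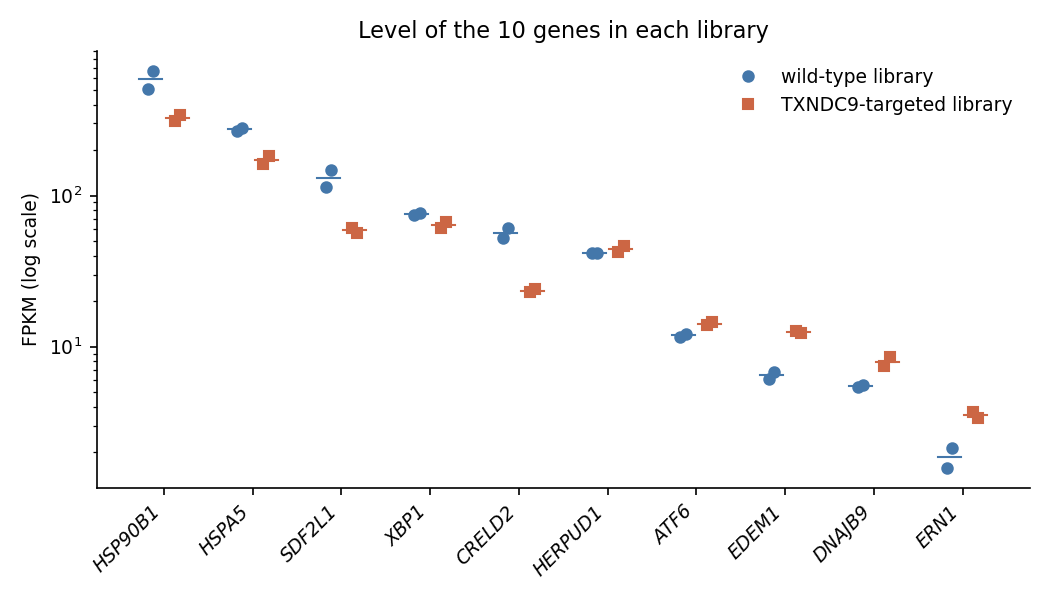
FPKM (log scale) of the 10 genes in each library, with a circle for each WT and a square for each KO (TXNDC9-targeted) library and a horizontal line at each group's mean. The points of the groups do not overlap for any gene: KO lies below WT for HSP90B1, HSPA5, SDF2L1, XBP1 and CRELD2 and above it for HERPUD1, ATF6, EDEM1, DNAJB9 and ERN1, before any rescaling, which turned the sign of HSPA5, XBP1, HERPUD1 and ATF6 under at least 1 of the alternatives tried.

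Among the sensors and their transcription factor, ERN1, the kinase and endoribonuclease that starts XBP1 splicing, was the least abundant member in every library. Its gene (ENSG00000178607) lies at chr17:64039080-64130819 of GRCh38, minus strand. ERN1 was at 1.58 and 2.14 FPKM in WT and at 3.69 and 3.38 FPKM in KO. Both KO libraries were above both WT libraries. In WT it averaged 1.86 ± 0.399 FPKM and in KO 3.53 ± 0.221 FPKM (SD, n = 2 each), 1.90 times higher in KO, and the log2 difference of 0.90 (SE 0.21, adjusted p = 0.0113, limma) missed both limits. Without WT replicate 2, the library with the higher WT value, the log2 difference was 1.11 and ERN1 was called higher. The positions of 2 other genes overlap it, and whether strand was used in counting is not given in the sources used here.

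ATF6 encodes the membrane-bound transcription factor that is released by cleavage, and its gene (ENSG00000118217) lies at chr1:161766298-161977574. It was at 11.7 and 12.1 FPKM in WT and at 13.8 and 14.5 FPKM in KO. The groups were separate but close. The log2 difference was 0.25 (SE 0.10, adjusted p = 0.0663, limma), and it changed to -0.67 when the trends with transcript length and GC content were removed. ATF6 has the second longest transcript of the members.

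XBP1 encodes the transcription factor made from the spliced mRNA (ENSG00000100219), at chr22:28794555-28800597, minus strand. It was at 74.3 and 76.7 FPKM in WT and at 60.9 and 66.4 FPKM in KO. Both KO libraries were lower, by a ratio of WT to KO of 1.19. The log2 difference of -0.25 (SE 0.11, adjusted p = 0.0818, limma) was not called, and it was 0.43 on the TPM scale, 0.25 after quantile normalization and 0.079 after the length and GC correction. A gene-level FPKM adds the spliced and unspliced forms of XBP1 together, so the splicing that ERN1 carries out was not measured. Within each library XBP1 stood at 47.0 and 35.8 times the FPKM of ERN1 in WT and at 16.5 and 19.7 times in KO. The groups of this ratio did not overlap. Its log2 difference was -1.15 in FPKM, -0.46 after quantile normalization and -0.29 after the length and GC correction.

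HSPA5 and HSP90B1 are the main chaperones of the ER lumen, an Hsp70 and an Hsp90 protein, and both were highly abundant. Together they made 71.7% and 72.8% of the members' summed FPKM in WT and 67.7% and 69.3% in KO. HSPA5 (ENSG00000044574, chr9:125234853-125241382, minus strand) was at 269 and 278 FPKM in WT and at 161 and 183 FPKM in KO. HSP90B1 (GRP94, ENSG00000166598, chr12:103930107-103953931, plus strand) was at 510 and 671 FPKM in WT and at 309.6 and 340.4 FPKM in KO. For both genes the KO libraries lay below the WT libraries, and the WT replicates of HSP90B1 differed from each other more than its KO replicates did.

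The mean of HSPA5 was 273 ± 6.20 FPKM (SD, n = 2) in WT and 172 ± 15.7 FPKM (SD, n = 2) in KO, 1.59 times higher in WT. Its log2 difference was -0.67 (SE 0.13, adjusted p = 0.00494, limma), which passed the limit on p and not the limit on fold. That of HSP90B1 was -0.85 (SE 0.18, adjusted p = 0.00748, limma), from 590.4 ± 113 to 325 ± 21.8 FPKM (SD, n = 2 each). Without WT replicate 1, the log2 difference of HSP90B1 was -1.05 and it was called lower. After quantile normalization it was -0.015 (adjusted p = 0.850, limma). The position of HSP90B1 overlaps those of MIR3652, TTC41P and UQCC6. The order of these genes among all tested genes hardly moved: HSPA5 stood at percentile 96.5 and 95.9 of FPKM in WT and at 96.1 and 96.5 in KO, and HSP90B1 at 98.2 and 98.4 in WT and at 98.2 and 98.3 in KO. The ratio of HSP90B1 to HSPA5 was 1.90 and 2.41 in WT and 1.93 and 1.86 in KO, and these groups overlapped.

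SDF2L1 and CRELD2 were the members that fell past both limits in FPKM. SDF2L1, an ER-resident cofactor that works with HSPA5 and its cochaperones (ENSG00000128228, chr22:21642302-21644299), was at 114 and 147 FPKM in WT and at 60.9 and 56.5 FPKM in KO. CRELD2, an ER protein with disulfide-handling activity (ENSG00000184164, chr22:49918167-49927540), was at 52.2 and 61.2 FPKM in WT and at 23.1 and 23.9 FPKM in KO. The KO replicates of each gene were close together and well under the lower WT value.

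SDF2L1 fell by 1.14 on the log2 scale (SE 0.15, adjusted p = 0.00150, limma), from 131 ± 23.5 to 58.7 ± 3.15 FPKM (SD, n = 2 each). CRELD2 fell by 1.26 on the log2 scale (SE 0.12, adjusted p = 0.000637, limma), from 56.7 ± 6.39 to 23.5 ± 0.589 FPKM (SD, n = 2 each). On the TPM scale the log2 differences were -0.46 and -0.59, and neither gene was called. SDF2L1 was at -0.61 after quantile normalization and at -0.96 without WT replicate 2, the higher WT library, and was not called in either case, while CRELD2 was at -1.003 and -1.15 and was called in both. Neither was called without KO replicate 1 (-1.20 for SDF2L1 and -1.24 for CRELD2) or without KO replicate 2 (-1.09 and -1.29). Relative to HSPA5 in the same library, CRELD2 was at 0.194 and 0.220 in WT and at 0.144 and 0.131 in KO, and SDF2L1 at 0.424 and 0.531 in WT and at 0.379 and 0.309 in KO. Both ratios were lower in both KO libraries in FPKM, with log2 differences of -0.59 for CRELD2 and -0.47 for SDF2L1 relative to HSPA5, and both turned after the length and GC correction, to 0.72 and 0.88. SDF2L1 and CRELD2 also changed place among all genes in FPKM: CRELD2 went from percentile 81.3 and 81.9 in WT to 67.8 and 67.6 in KO, and SDF2L1 from 91.1 and 92.0 to 87.8 and 86.0. CRELD2 overlaps ALG12 on the opposite strand, and their reads cannot be told apart if strand was not used.

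DNAJB9 (ERdj4), a cochaperone that helps HSPA5 bind ERN1 and misfolded proteins, went the other way. This gene (ENSG00000128590, chr7:108569867-108574850) was at 5.37 and 5.60 FPKM in WT and at 7.43 and 8.51 FPKM in KO. Both KO values were higher. The log2 difference of 0.53 (SE 0.13, adjusted p = 0.0119, limma) was not called in FPKM and was 1.20 and called on the TPM scale. The ratio of DNAJB9 to HSPA5 was 0.020 and 0.020 in WT and 0.046 and 0.047 in KO, and the groups did not overlap. The log2 difference of DNAJB9 relative to HSPA5 was 1.20 in FPKM, 0.23 after quantile normalization and 1.36 after the length and GC correction.

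EDEM1 and HERPUD1 serve ER-associated degradation, the removal of misfolded proteins. EDEM1, which marks misfolded glycoproteins for export (ENSG00000134109, chr3:5187646-5219958), was at 6.07 and 6.83 FPKM in WT and at 12.7 and 12.3 FPKM in KO. Its log2 difference was 0.95 (SE 0.11, adjusted p = 0.00115, limma), 1.94 times higher in KO, just under the fold limit, and without WT replicate 2 it was 1.03 and EDEM1 was called higher. HERPUD1, an ER membrane protein that organizes the degradation complex (ENSG00000051108, chr16:56932142-56944864), was at 41.7 and 41.6 FPKM in WT and at 42.2 and 46.6 FPKM in KO. HERPUD1 differed least of the members in FPKM, with a log2 difference of 0.091 (SE 0.10, adjusted p = 0.465, limma) that was -0.052 after centring each library on its median and 0.77 on the TPM scale, where HSPA5, HSP90B1, SDF2L1, CRELD2 and XBP1 all differed less. The ratio of EDEM1 to HERPUD1 was 0.146 and 0.164 in WT and 0.302 and 0.264 in KO, and these groups did not overlap. The log2 difference of EDEM1 relative to HERPUD1 was 0.86 in FPKM, 0.31 after quantile normalization and 0.25 after the length and GC correction.

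Ordered by FPKM, the members in WT ran HSP90B1, HSPA5, SDF2L1, XBP1, CRELD2, HERPUD1, ATF6, EDEM1, DNAJB9 and ERN1. In KO, XBP1 stood above SDF2L1 and HERPUD1 above CRELD2, and the rest kept their places. In each group the replicates of neighbours in this order did not overlap, but in KO XBP1 and SDF2L1 were separated only by 60.915 against 60.912 FPKM in replicate 1, so these neighbours do not differ beyond their spread. The highest member stood 317-fold above the lowest in WT and 92.0-fold in KO, a narrower span. Over the 10 genes the log2 difference was lower where the level was higher (Spearman rho -0.745), a description over genes of the same libraries.

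**Figure D2:**
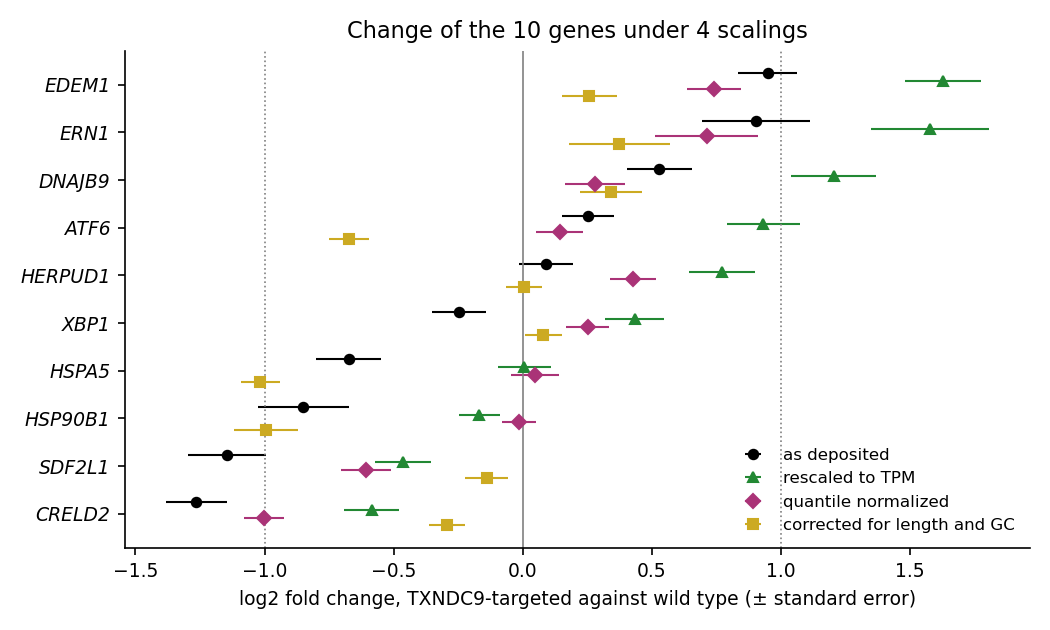
Log2 fold change of KO (TXNDC9-targeted) against WT for each of the 10 genes as deposited, rescaled to TPM, quantile normalized and corrected for length and GC, with bars for ± 1 standard error and dotted lines at the 2-fold limit. EDEM1, ERN1 and DNAJB9 lie above 0 and CRELD2, SDF2L1 and HSP90B1 below it under all 4, HSP90B1 at only -0.015 after quantile normalization (adjusted p = 0.850, limma), while HSPA5 (0.0066 on the TPM scale and 0.046 after quantile normalization), XBP1 (0.43, 0.25 and 0.079 in the order of the legend) and ATF6 (-0.67 after the correction) change sign, as does HERPUD1 after median centring (-0.052, not plotted).

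The scale of the libraries set how the directions were shared out. On the TPM scale, where each library sums to the same total, the median of all genes stood at 0.59, against -0.088 in FPKM, and 90.7% of calls were higher in KO against 48.3% in FPKM and 35.8% after median centring. On that scale DNAJB9 (1.20), ERN1 (1.58) and EDEM1 (1.63) were called higher and 0 members lower. Of all 13246 tested genes, 4380 were called higher and 447 lower there. Relative to the median of all genes on that scale, HSPA5 (0.0066), HSP90B1 (-0.17), SDF2L1 (-0.46), CRELD2 (-0.59) and XBP1 (0.43) lay below it and HERPUD1 (0.77) and ATF6 (0.93) above it. In FPKM the members were spread over the distribution of all genes: 10.3% of all tested genes had a lower log2 difference than CRELD2, 13.1% than SDF2L1, 21.8% than HSP90B1 and 28.0% than HSPA5. At the other end, 83.0% had a lower difference than EDEM1, 82.0% than ERN1 and 71.4% than DNAJB9. XBP1, HERPUD1 and ATF6 lay between 43.8% and 62.3%. These places moved with the scaling as well. After quantile normalization 52.9% of genes had a lower log2 difference than HSPA5 and 50.6% than HSP90B1, and after the length and GC correction 8.58% and 8.96%. For SDF2L1 the share was 44.3% and for CRELD2 35.0% after that correction.

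Transcript length moved with these values. SDF2L1 and CRELD2 have the shortest transcripts of the members, 825 and 1428 nt, and ERN1, ATF6 and EDEM1 the longest, 7895, 7470 and 6113 nt. Over the 10 genes the log2 difference was higher for longer transcripts (Spearman rho 0.733) and over 125 genes of the related lists described further on it did likewise (rho 0.751), as across all genes. When all tested genes were split by length into 10 bins of like size, the bin with a median length of 1069 nt had a median difference of -0.86, and the bin with a median length of 8887 nt had 0.90. Replicates of the same group also differed with length in WT (rho -0.325 for WT replicate 2 over WT replicate 1) and less in KO (rho -0.0625). When trends with length and GC content were removed from each library, SDF2L1 was at -0.14 (adjusted p = 0.214, limma) and CRELD2 at -0.29 (adjusted p = 0.0223, limma), neither called, and EDEM1 was at 0.26, ERN1 at 0.37 and DNAJB9 at 0.34. HSPA5 moved away from 0, to -1.02 (adjusted p = 0.00201, limma), and was called lower, and HSP90B1 was at -0.99 (adjusted p = 0.00400, limma), just short of the fold limit. The part of length in these differences was not tested further.

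**Figure D3:**
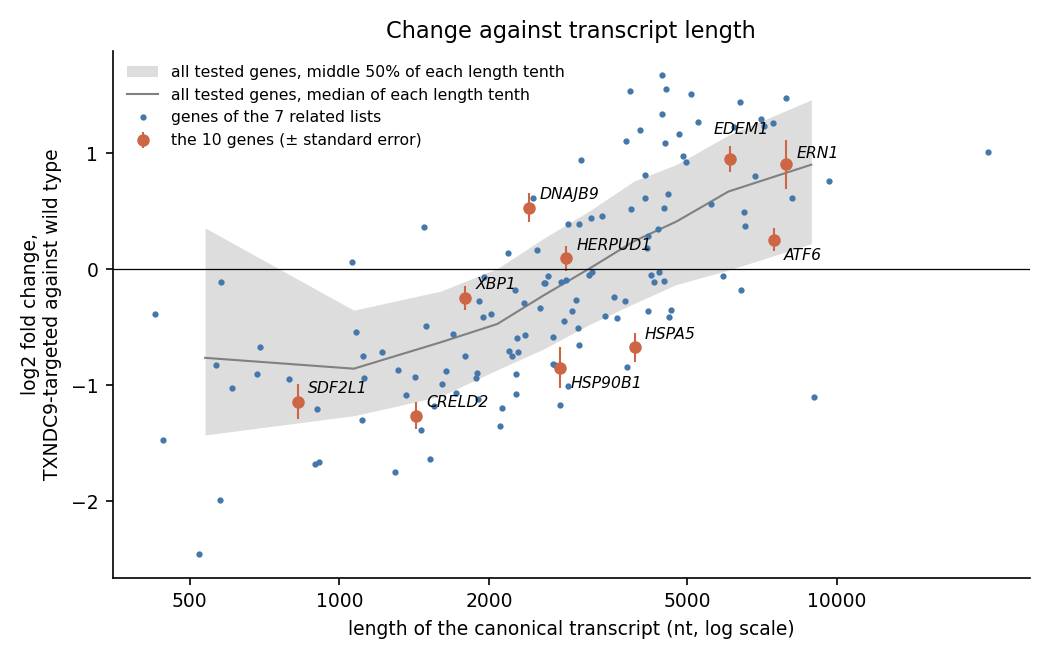
Log2 fold change of KO (TXNDC9-targeted) against WT over canonical transcript length in nt (log axis) for the 10 genes (large points, ± 1 standard error) and the genes of the 7 related lists (small points), with a line for the medians and shading for the middle 50% of 10 length bins of all tested genes. SDF2L1 (825 nt) lies below the line and within the shading toward its short end, and ERN1 (7895 nt) near its long end. CRELD2 (1428 nt), HSPA5 (3921 nt) and HSP90B1 (2782 nt) lie below the shading and DNAJB9 (2409 nt) above it, in FPKM as deposited (HSPA5 was at 0.0066 on the TPM scale and 0.046 after quantile normalization).

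The promoters of the members were searched for the known control elements of the response, because these separate the members by how they are thought to be switched on. The windows ran from 250 bases before to 50 bases after each RefSeq start on GRCh38.p14, and all 10 members had one. The ER stress response element ERSE (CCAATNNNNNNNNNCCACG) binds ATF6 together with NF-Y, ERSE-II (ATTGGNCCACG) is a compact form, and the UPR element (TGACGTGG) is bound by spliced XBP1 and by ATF6. Both strands were searched. The matches that carry the comparison are given in the direction of the gene, with the match in capitals and 5 bases on each side.
HSPA5: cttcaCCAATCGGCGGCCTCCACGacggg
HSP90B1, distal: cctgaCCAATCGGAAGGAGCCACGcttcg
HSP90B1, proximal: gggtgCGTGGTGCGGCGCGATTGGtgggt
XBP1: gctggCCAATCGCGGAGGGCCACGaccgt
CRELD2: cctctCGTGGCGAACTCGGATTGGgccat
HERPUD1: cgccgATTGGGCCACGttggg
SDF2L1: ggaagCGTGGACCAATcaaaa

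The ERSE was matched in 4 members. The stretch printed for HSPA5 lies at chr9:125241386-125241414 on the minus strand, those of HSP90B1 at chr12:103930211-103930239 and chr12:103930316-103930344, that of XBP1 at chr22:28800598-28800626 on the minus strand in 1 of its 2 windows, and that of CRELD2 at chr22:49918549-49918577. The proximal match of HSP90B1 and the match of CRELD2 are in the reverse orientation, and the match of CRELD2 lies also in the window of ALG12. Counted from the start, with the base before it as -1, the match of HSPA5 began at -66, those of HSP90B1 at -194 and -89, that of XBP1 at -52 and that of CRELD2 at -80. The ERSE-II was matched in 2 members, HERPUD1 (chr16:56932020-56932040) and SDF2L1 (chr22:21642109-21642129, reverse orientation), beginning at -117 and -188. DNAJB9, ERN1, EDEM1 and ATF6 held none of the 3 strings in these windows, and the UPR element was in 0 members. Among 35116 windows the ERSE was in 27 (0.0769%), the ERSE-II in 19 (0.0541%) and the UPR element in 256 (0.729%).

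The members with an ERSE or ERSE-II match had a median log2 difference of -0.76 in FPKM, with 2 of 6 called lower, where all tested genes had a median of -0.088 and 15.3% called lower. The median of these 6 members was -0.081 on the TPM scale with 0 called, 0.016 after quantile normalization with 1 called lower, and -0.22 after the length and GC correction with 1 called lower. The 4 members without a match, EDEM1, ERN1, DNAJB9 and ATF6, had a higher FPKM in both KO libraries. So did HERPUD1, which holds a match, and 40.1% of all tested genes. After the length and GC correction EDEM1, ERN1, DNAJB9 and ATF6 were at 0.26, 0.37, 0.34 and -0.67. ERN1, ATF6 and EDEM1 also have the longest transcripts of the members, and SDF2L1 and CRELD2, each with a match, the shortest. Whether these differences go with the match or with length was not tested. HERPUD1 held a match and was not lower in FPKM, with a log2 difference of 0.091 (-0.052 after median centring). The 23 other tested genes with either element had a median of -0.25, with 3 called lower and 2 higher. A match is a run of letters and not a measured binding site.

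The wider machinery was described with 7 lists of 133 genes, none of them a member, of which 125 were tested. Of these, 21 were called lower and 17 higher, with a median log2 difference of -0.28, so as in the members neither direction held throughout. These shares lay near those of all tested genes, 15.3% lower and 14.2% higher, beside which the counts by list below are to be read. On the TPM scale 4 were called lower and 38 higher (447 and 4380 of all 13246 genes). After the length and GC correction 10 were lower and 4 higher (925 and 797 of all 13112 genes). Of the other sensors and their processing factors, 4 of 11 were called higher and 1 lower. MBTPS2, the protease that makes the second cut in ATF6, rose by 1.68 on the log2 scale, from 8.71 ± 0.962 to 28.0 ± 1.11 FPKM (SD, n = 2 each, adjusted p = 0.000512, limma), and it was called under the 12 alternatives that kept all 4 libraries. TRAF2, an adaptor recruited by active ERN1, fell by 1.07, and its call was lost in 4 of those 12, the correction (-0.35) and TPM (-0.39) among them, and without WT replicate 2 (-0.995).

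EIF2AK3, the PERK sensor, rose by 1.55 on the log2 scale, from 3.24 ± 0.536 to 9.68 ± 1.52 FPKM (SD, n = 2 each, adjusted p = 0.00102, limma). The mRNAs of the sensors ERN1, ATF6 and EIF2AK3 had higher FPKM in both KO libraries, as did 40.1% of all tested genes. Only EIF2AK3 was called, and ATF6 was at -0.67 after the length and GC correction. Of the 11 tested genes listed as other sensors and processing factors, 5 were higher in both KO libraries, EIF2AK3 among them. The other 6 were lower in both, ATF6B and CREB3 among them. Downstream of EIF2AK3, 2 of 8 genes were called lower and 1 higher. ATF4, the factor whose translation this branch favours, was at -0.93 (adjusted p = 0.00179, limma) and not called, its target DDIT3 (CHOP) fell by 1.21, CHAC1, a glutathione-degrading enzyme, fell by 1.64, and PPP1R15B, a subunit of the phosphatase that reverses the branch, rose by 1.27. The call was lost in 5 of the 12 alternatives with all 4 libraries for DDIT3, in 2 for PPP1R15B and in 1 for EIF2AK3, and in 3 of 11 for CHAC1, which had too low an average for the limit of 5 FPKM. The correction with the replicate block was among them for each gene. DDIT3 was also not called without WT replicate 2 (-0.89).

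Among chaperones and cochaperones of the ER lumen, the list nearest to HSPA5 and HSP90B1 in function, 6 of 19 were called lower and 1 higher, with a median of -0.70. FKBP2, a prolyl isomerase of the lumen, fell by 1.99 and DNAJC10 (ERdj5), a disulfide reductase, rose by 1.01. In ER-associated degradation, the process of EDEM1 and HERPUD1, 3 of 28 were called lower and 2 higher, with a median of -0.31. SEL1L, the scaffold of the HRD1 ligase, rose by 1.48 and TMUB1 fell by 1.75. Of translocation and signal peptide cleavage genes, 3 of 25 were called lower and 1 higher, SSR2 falling by 1.30 and TRAM2 rising by 1.30. Of oligosaccharyltransferase subunits 2 of 11 were called lower and 1 higher, with KRTCAP2 at -2.46 and MAGT1 at 1.09, and of COPII coat and export genes 4 of 23 lower and 7 higher, with PREB at -1.20 and SEC23A at 1.54. None of these genes named from the lists changed direction under any scaling tried, but many calls were lost. After the length and GC correction FKBP2, KRTCAP2 and SEC23A were still called and DNAJC10, SEL1L, TMUB1, TRAM2, SSR2, MAGT1 and PREB were not. Of the 12 alternatives with all 4 libraries, the call was lost in 6 for PREB, in 5 each for DNAJC10 and SSR2, in 3 for MAGT1 and in 2 each for SEL1L, TMUB1 and TRAM2. Leaving out WT replicate 1 also lost DNAJC10 (0.91) and leaving out WT replicate 2 lost PREB (-0.87).

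**Figure D4:**
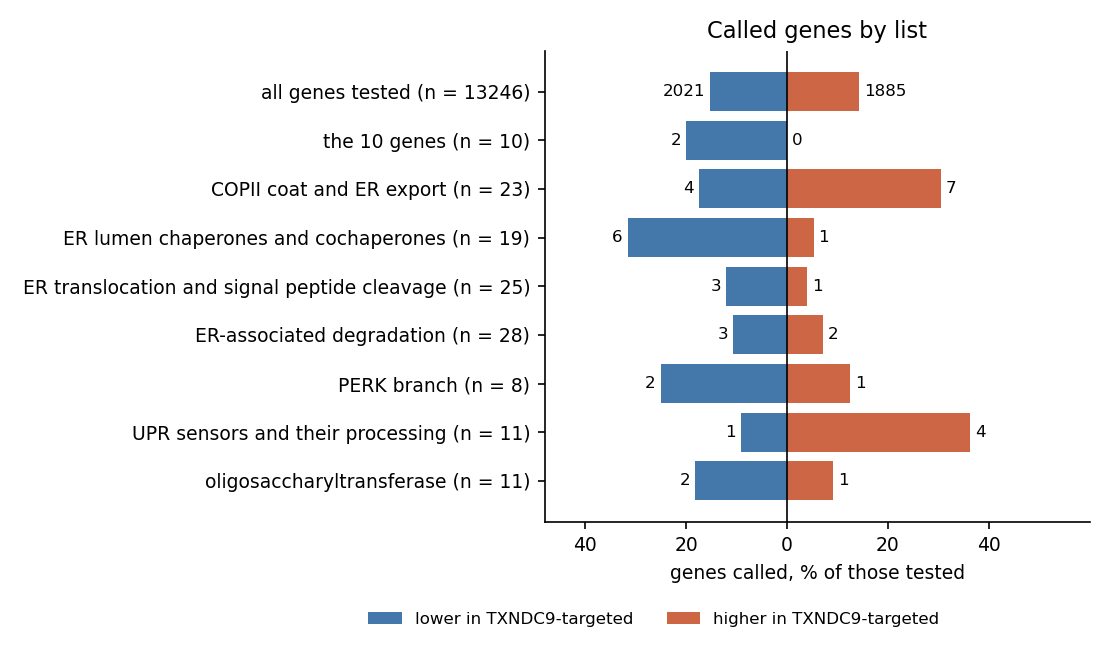
Share of tested genes called lower (left) and higher (right) in KO, in percent, for all tested genes, the 10 genes and the 7 related lists, with the number of genes called beside each bar. In FPKM, calls in both directions occur in each of the 7 lists, with 6 of 19 lower among lumen chaperones and 7 of 23 higher among COPII genes. Of all tested genes 15.3% were called lower and 14.2% higher. On the TPM scale the 7 lists together had 4 lower and 38 higher, where all genes had 447 and 4380.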

How the data were processed

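Polyadenylated RNA from cells labelled HepG2 was sequenced in 4 libraries (WT and KO, replicates 1 and 2). Per the submitters' processing notes, TopHat2, Cufflinks and Cuffdiff and the build hg38 were used, and the authors deposited FPKM values per gene and library. Whether reads were counted by strand, and the tools' versions, are not given in the sources used here. Condition averages and the authors' own fold changes, p-values and q-values were not used. Of 231916 lines, 57979 held values. Each identifier occurred 4 times and only 1 was on the line of its gene, so identifiers were put back in their order, and 56935 were in GENCODE 44, which gave positions, canonical transcript lengths and GC content.

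The test was limma 3.58.1 (R 4.3.3) with a trended prior variance, run on log2(FPKM + 0.1) for the 13246 genes whose average FPKM exceeded 1, and p-values were adjusted over these by the Benjamini-Hochberg method. The log2(FPKM + 0.1) scale understates changes of low genes. Calls needed an adjusted p under 0.01 and at least 2-fold. An exact two-sided permutation test of 2 against 2 libraries cannot go below p = 0.333, so none is given. No read step was found in low values (at most 4.53% of low genes shared a ratio), so no counts were recovered. WT replicates correlated at 0.976 and KO replicates at 0.980 on the log2 scale.

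The members and lists were chosen with earlier results of these data known. Named genes were the 10 members, TXNDC9, EIF2AK3, ATF4 and DDIT3, and for each list the called gene with the largest rise and the largest fall and groups that did not overlap. Promoter windows were those of RefSeq. The alternatives were pseudocounts of 1 and 0.01, no filter or an average above 5 FPKM, an adjusted p under 0.05, TPM, median centring, quantile normalization, a loess correction (span 0.3) for length and GC, the replicate block, and leaving out each library. In simulated data with 13246 genes, all 200 changed genes were called and 0 others. With a simulated length trend 88.8% of 197 among 13112 were called with 1402 false calls, or 99.5% with 0 after the correction. The simulated data held far fewer changed genes than the 2021 lower and 1885 higher called in the libraries. Whether the calls and the correction do as well on the libraries, or for differences of the size seen in the members, was not tested. Python 3.11.15, pandas 2.3.3, numpy 2.4.6 and matplotlib 3.10.9 were used.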

Additional observations from a re-analysis of the deposited data

How the results depend on the processing

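Of all tested genes, 2021 were called lower and 1885 higher in FPKM. The counts were 447 and 4380 on the TPM scale, 925 and 797 after the length and GC correction, 926 and 747 with that correction and the replicate block, and 1220 higher above an average of 5 FPKM. Of the members, 2 were called lower and 0 higher, against 0 and 3 on the TPM scale, 1 lower after quantile normalization and 1 lower after the correction with and without the block. Of the related lists, 21 were called lower and 17 higher, against 4 and 38 on the TPM scale. The counts were 31 and 14 after median centring, 8 and 21 after quantile normalization, 10 and 4 after the correction and 10 and 3 with the block added. Leaving out 1 library gave 0 to 2634 genes lower and 0 to 2099 higher, 0 to 3 members lower and 0 to 2 higher, and 0 to 31 related genes lower and 0 to 18 higher. The counts of 0 came from leaving out either KO library, where the lone KO library is assumed to vary like WT, and limma then gave 7131 and 7315 genes at an unadjusted p under 0.05. Differences that changed sign were HSPA5 (0.0066 on the TPM scale, 0.046 after quantile normalization), XBP1 (0.43, 0.25, and 0.079 after the correction with and without the block), HERPUD1 (-0.052 after median centring), ATF6 (-0.67 after the correction with and without the block) and TXNDC9 (0.12 on the TPM scale). Replicate numbers were not taken as pairs, since deviations of same-numbered libraries correlated at -0.0904. With the replicate block 2146 genes were called lower and 1960 higher, 2 members lower and 0 higher, and 21 related genes lower and 17 higher. ERN1 was not tested above an average of 5 FPKM. The cause of these changes was not tested. Unknown depth limits what can be said of low genes such as ERN1.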

Other observations

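Of the 23 tested genes outside the members with an ERSE or ERSE-II match, 6 with known roles in the ER were set beside the members. They were chosen here after their values were seen and are not a full list of such genes. These were CALR, CANX, PDIA6, SERP1 and FICD with an ERSE and HYOU1 with an ERSE-II. CALR, a lectin chaperone of the lumen, was at 860 and 1057 FPKM in WT and at 419 and 459 FPKM in KO, a log2 difference of -1.12 that was called lower and was -0.64 after the length and GC correction. CANX, its membrane-bound relative, was at 246 and 222 FPKM in WT and at 437 and 483 FPKM in KO, a log2 difference of 0.98 that was not called, 0.27 after the correction and 1.66 on the TPM scale. The canonical transcript of CALR has 1901 nt and that of CANX 4915 nt. HYOU1, an Hsp110-type chaperone, was at 63.5 and 79.98 FPKM in WT and at 49.2 and 58.2 FPKM in KO, with a log2 difference of -0.41 in FPKM and 0.27 on the TPM scale. PDIA6, a disulfide isomerase, was at 241 and 247 FPKM in WT and at 198 and 212 FPKM in KO, a log2 difference of -0.25 (0.43 on the TPM scale). SERP1, an ER membrane protein, was at 114 and 141 FPKM in WT and at 90.1 and 87.3 FPKM in KO, a log2 difference of -0.51 (0.17 on the TPM scale). FICD, which modifies HSPA5, was at 1.61 and 1.76 FPKM in WT and at 2.47 and 2.05 FPKM in KO, a log2 difference of 0.40. ALG12, not among the 6, shares the match of CRELD2. It was at 15.8 and 15.4 FPKM in WT and at 9.51 and 8.84 FPKM in KO. Its log2 difference of -0.76 was not called, and it was -0.83 after the length and GC correction and -0.086 on the TPM scale. Of the 6, CALR was the only one called in FPKM, and CANX was called on the TPM scale. Like HSPA5, HYOU1, PDIA6 and SERP1 changed sign with the scale of the libraries, and CALR and CANX differed in opposite directions although the windows of both hold the element.

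The level of SDF2L1 was also compared with that of its relative SDF2 within each library. The ratio was 1.94 and 2.04 in WT and 1.91 and 1.41 in KO. KO replicate 1 differed from WT replicate 1 by less than the WT replicates differed from each other. A lower ratio in KO thus rested on KO replicate 2 alone. This ratio was not taken after quantile normalization or the length and GC correction.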
